A study of Homo sapiens with 24 samples.

Results

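Immune checkpoint ligands are surface or secreted proteins of a tumor cell that restrain immune cells by engaging inhibitory receptors. The 9 genes CD274, PDCD1LG2, CD276, VTCN1, PVR, NECTIN2, LGALS9, CD47 and TNFRSF14 were taken as a fixed list and matched by symbol, each to 1 gene ID, in a table of 58381 gene IDs counted in bladder cancer cell lines. Messenger RNA was measured in T24, 5637, TCC-SUP and CLS-439, established human bladder cancer lines, after mitomycin C (MMC) or without treatment (NT). MMC is a DNA crosslinking drug used in the bladder. The treated cultures were exposed to 75 µM of it for 1 h, with RNA isolated 15 h later. Each line had 3 MMC and 3 NT libraries, numbered 1, 3 and 4, so 24 libraries formed 8 groups. The labels name no immune cells in these cultures, so the receptor side of the checkpoints was sampled only as far as the lines themselves transcribe it. The 9 genes passed through a filter on low counts with 8 members left among 20820 tested genes, and VTCN1 was the one below it.

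Checkpoint ligands work in pairs with receptors on immune cells. PD-L1, encoded by CD274, and PD-L2, encoded by PDCD1LG2, bind PD-1 on T cells and dampen their activation; antibodies that block PD-1 or PD-L1 are used in bladder cancer. CD276 (B7-H3) and VTCN1 (B7-H4) belong to the same B7 family, PVR (CD155) and NECTIN2 (CD112) engage TIGIT and the activating receptor CD226, and galectin-9, the product of LGALS9, binds TIM-3. CD47 restrains phagocytosis through SIRPα on macrophages, and TNFRSF14 (HVEM) engages BTLA and CD160.

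Counted reads per library ranged from 13791428 to 28821665. CLS-439 libraries stood apart, with 0.0238 to 0.0283% of reads on mitochondrial genes against 3.21 to 7.40% in the other 18 libraries, and 2.75 to 3.05% on processed pseudogenes against 0.143 to 0.228%. Whether CLS-439 RNA matches the human reference was not tested. Treated replicate 1 was the mildest treated library of every line: over the genes called in a line, its change had a slope of 0.595 to 0.812 on the mean change of the other 2 treated libraries, against 0.98 to 1.33 for replicates 3 and 4. Of 7 epithelial markers, KRT7, KRT8 and KRT18 had at least 27.0 CPM in every group, while CDH1 had at most 0.0693 CPM in T24, KRT19 at most 1.98 CPM in CLS-439, and KRT5 under 1 CPM outside 5637. Of 6 urothelial markers, PPARG had 22.3 to 139 CPM over the groups, GATA3 had 29.4 to 57.7 CPM in T24, 5637 and TCC-SUP and at most 1.98 CPM in CLS-439, UPK1B reached 6.60 CPM in CLS-439, and UPK2, UPK3A and KRT20 had at most 0.364 CPM. Of 15 immune cell markers, 11 to 15 lay under 1 CPM in every library of a group, and their summed level in TCC-SUP was 20.1 to 26.9 CPM in MMC libraries against 38.1 to 44.7 CPM in NT libraries, mostly PTPRC and CD14, with CD2, CD3G, CD8A, MS4A1, NKG7 and TYROBP at 0 reads. The sum was 0.531 to 4.73 CPM in the other lines. Its part in the TCC-SUP results was not tested, and in these bulk samples a change of RNA per cell cannot be told apart from a change in the mix of cells.

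The promoters of the 5 members called after MMC are shown first, from 250 bases before to 50 bases after the gene start, taken from RefSeq (GRCh38.p14), where 8 of the 9 members had a window. These RefSeq starts differ from the GENCODE 29 gene bounds given with each gene further on, and CD276 has 2 of them. Capitals mark matches to the motifs searched on both strands: the interferon-stimulated response element core (GAAA and again GAAA, with 2 bases of any kind between), the STAT site TTCNNNGAA, the AP-1 site TGANTCA and the NF-kB site. The windows are chr9:5450292-5450591 (plus strand) for CD274, chr15:73684133-73684432 and chr15:73684520-73684819 (plus strand) for CD276, chr19:44643660-44643959 (plus strand) for PVR, chr3:108090982-108091281 (minus strand) for CD47 and chr1:2556121-2556420 (plus strand) for TNFRSF14.
CD274: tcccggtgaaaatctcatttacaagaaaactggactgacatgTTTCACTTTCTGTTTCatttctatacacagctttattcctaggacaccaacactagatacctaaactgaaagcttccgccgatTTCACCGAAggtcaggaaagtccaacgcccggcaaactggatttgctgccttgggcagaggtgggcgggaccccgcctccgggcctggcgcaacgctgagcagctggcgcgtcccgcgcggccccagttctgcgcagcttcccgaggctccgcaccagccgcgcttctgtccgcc
CD276, first window: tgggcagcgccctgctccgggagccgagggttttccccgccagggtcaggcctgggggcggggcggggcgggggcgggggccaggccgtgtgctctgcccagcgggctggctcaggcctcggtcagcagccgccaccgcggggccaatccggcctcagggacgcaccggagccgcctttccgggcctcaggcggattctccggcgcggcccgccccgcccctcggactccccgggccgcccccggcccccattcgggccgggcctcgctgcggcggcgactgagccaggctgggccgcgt
CD276, second window: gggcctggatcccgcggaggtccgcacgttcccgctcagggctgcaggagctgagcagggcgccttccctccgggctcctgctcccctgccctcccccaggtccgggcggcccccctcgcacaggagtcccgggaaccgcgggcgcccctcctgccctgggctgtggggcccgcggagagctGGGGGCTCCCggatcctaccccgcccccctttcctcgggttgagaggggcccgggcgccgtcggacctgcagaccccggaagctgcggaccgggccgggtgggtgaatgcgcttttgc
PVR: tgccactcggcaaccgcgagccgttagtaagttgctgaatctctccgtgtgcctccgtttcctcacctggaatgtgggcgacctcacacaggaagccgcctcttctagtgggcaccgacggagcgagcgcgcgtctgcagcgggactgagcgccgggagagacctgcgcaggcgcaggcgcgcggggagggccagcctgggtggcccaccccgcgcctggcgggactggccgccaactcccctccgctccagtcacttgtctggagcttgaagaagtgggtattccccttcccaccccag
CD47: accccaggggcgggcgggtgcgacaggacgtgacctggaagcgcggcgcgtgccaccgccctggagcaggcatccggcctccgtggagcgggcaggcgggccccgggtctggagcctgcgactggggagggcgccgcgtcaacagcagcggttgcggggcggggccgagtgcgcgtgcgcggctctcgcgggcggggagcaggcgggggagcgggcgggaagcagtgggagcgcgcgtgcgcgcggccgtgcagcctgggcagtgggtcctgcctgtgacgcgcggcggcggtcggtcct
TNFRSF14: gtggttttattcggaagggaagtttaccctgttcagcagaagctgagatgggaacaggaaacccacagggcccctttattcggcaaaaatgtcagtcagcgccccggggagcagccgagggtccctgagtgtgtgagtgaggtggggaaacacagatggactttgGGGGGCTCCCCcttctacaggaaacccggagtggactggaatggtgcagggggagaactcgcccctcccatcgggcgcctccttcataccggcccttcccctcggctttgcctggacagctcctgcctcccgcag
The CD274 window held 2 overlapping response element cores, read on the minus strand and starting at -208 and -202 relative to the gene start, and 1 STAT site starting at -125. The TNFRSF14 window held 2 overlapping NF-kB matches, at -85 and -84, the second CD276 window held 1 NF-kB match at -68, and the first CD276 window and the PVR and CD47 windows held none of the 4 motifs. Among 35114 promoters, 3.57% held the response element core, 7.66% the STAT site, 7.71% the AP-1 site and 7.73% the NF-kB site. LGALS9 held 1 response element core at -9, VTCN1 had 1 AP-1 site, and NECTIN2 had none. A match is a run of letters and no measure of binding. GC content was 57.3% in the CD274 window, 80.3% and 76.0% in the CD276 windows, 67.3% for PVR, 79% for CD47 and 60.3% for TNFRSF14.

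Without treatment, PVR was the most abundant checkpoint ligand per transcript length in every library of T24, TCC-SUP and CLS-439, while PVR and CD274 shared the top of the order in 5637. Levels of different genes are compared as RPKM, CPM divided by the exon length in kb, where CPM is a gene's read count per library after scaling all libraries to 1 depth, and are means ± SD over 3 libraries. PVR reached 80.0 ± 7.63 RPKM in NT TCC-SUP, 49.4 ± 4.36 in NT T24, 43.6 ± 0.826 in NT CLS-439 and 35.0 ± 1.08 in NT 5637. CD276 and NECTIN2 came next in T24 (26.5 ± 5.18 and 26.4 ± 3.36 RPKM) and TCC-SUP (48.6 ± 3.91 and 35.7 ± 4.64 RPKM), and in NT CLS-439 NECTIN2 (34.9 ± 0.571 RPKM) stood above CD276 (13.6 ± 0.291 RPKM). In NT 5637 the upper 4 members lay close together beside their SDs, with CD274 at 33.8 ± 4.09, CD276 at 32.5 ± 0.707 and NECTIN2 at 29.02 ± 2.22 RPKM. CD274 was above PVR in NT 5637 replicates 3 (36.5 against 34.0 RPKM) and 4 (35.8 against 34.8 RPKM) and below it in replicate 1 (29.1 against 36.1 RPKM). At the low end, LGALS9 and TNFRSF14 stayed under 3 RPKM in all NT groups, and VTCN1 under 0.1 RPKM. Summed over the 9 genes, the level was 165 ± 18.5 RPKM in MMC and 126 ± 5.45 in NT T24, 213 ± 16.8 in MMC and 148 ± 1.72 in NT 5637, 208 ± 8.18 in MMC and 190 ± 7.83 in NT TCC-SUP, and 116 ± 17.7 in MMC and 99.7 ± 0.445 in NT CLS-439. No test was made of these sums.

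**Figure D1:**
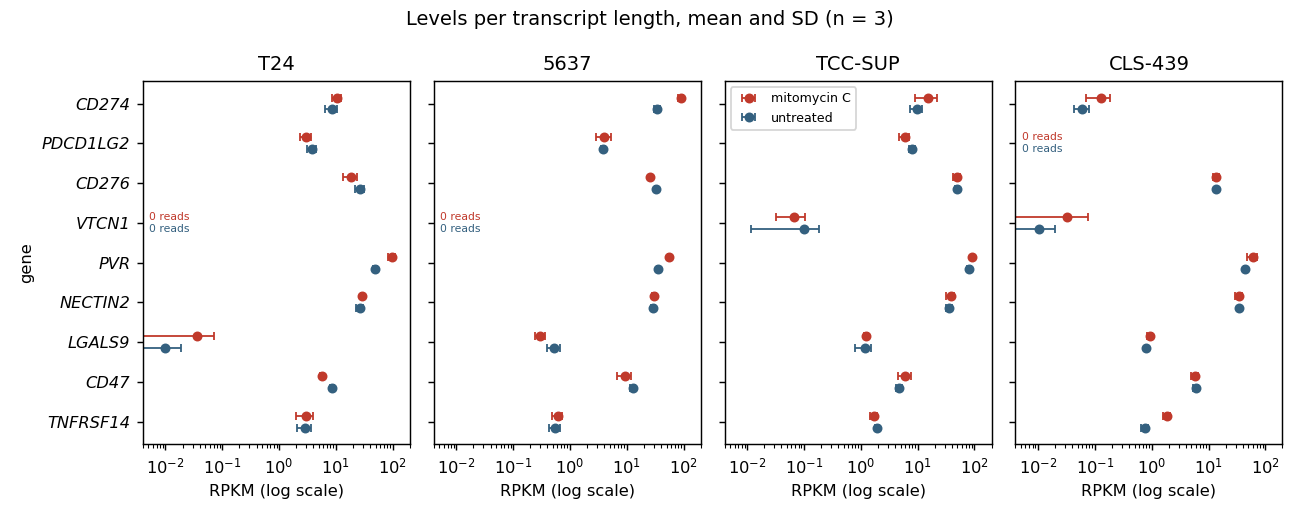
Level of each checkpoint ligand gene per transcript length (RPKM, log scale) in MMC (red, upper) and NT (blue, lower) groups of each line, as the mean and SD of 3 libraries; a bar that runs to the left edge reaches below the axis, and groups with no read are marked. PVR has the highest mean of every NT group, in 5637 within the spread of CD274, and CD274 is the highest of MMC-treated 5637 at 88.4 RPKM.

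After MMC, PVR rose in T24 and 5637, CD274 rose in 5637 and TCC-SUP, TNFRSF14 rose in CLS-439, and CD276 and CD47 fell in T24. Of 31 combinations of a tested member and a line with reads, 7 passed an adjusted p of 0.05 by edgeR's quasi-likelihood test, 5 higher and 2 lower after MMC, and 3 members (PDCD1LG2, NECTIN2 and LGALS9) passed in 0 lines. In T24, 3 of 8 members passed beside 28.6% of all tested genes, 1 higher (15.2% of all genes) and 2 lower (13.4%). The 2 members higher in 5637 stood beside 29.4% of all genes called and 15.9% called higher, and the 1 member higher in TCC-SUP beside 20.7% called and 9.57% called higher. In CLS-439, 1 member was higher, beside 0.62% of all genes called and 0.298% called higher. The members' shares in T24, 5637 and TCC-SUP were near the background of their lines. Without replicate 1 of every group, the members called were 3 in T24, 3 in 5637 (with CD47, lower), 2 in TCC-SUP (with PDCD1LG2, lower) and 2 in CLS-439 (with PVR, higher). Other removals took calls away. Dropping replicate 3 of every group left PVR and CD47 called in T24, and dropping replicate 4 left only PVR. CD274 and PVR stayed called in 5637 in both cases. The lowest count with a replicate left out, in 1 group or in all, was 0 for CLS-439 and likewise for TCC-SUP.

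**Figure D2:**
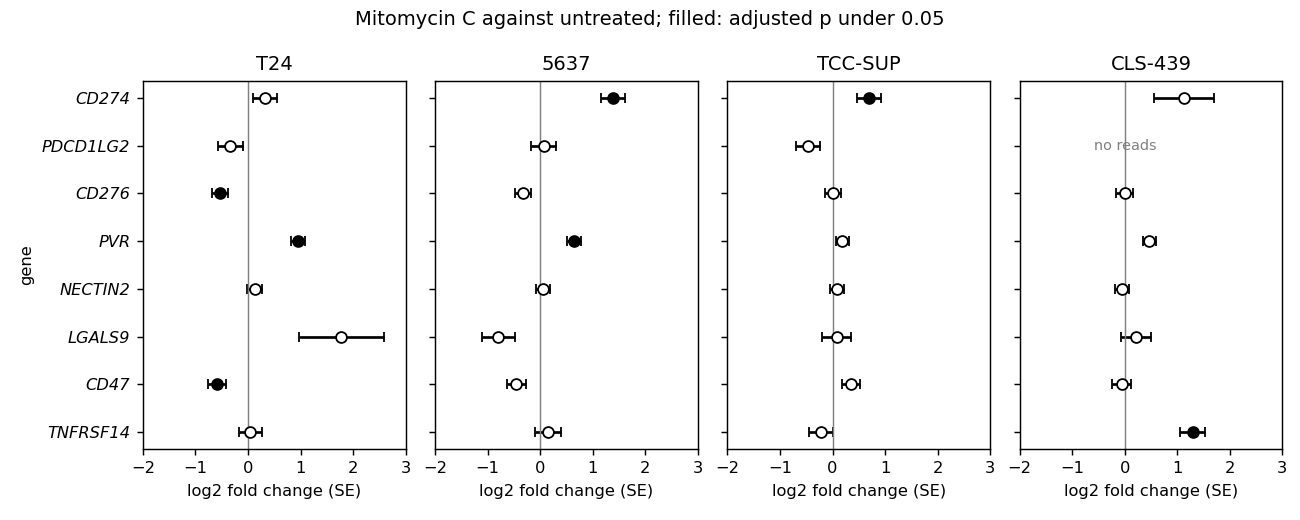
Log2 fold change of MMC over NT with its SE for the 8 tested members in each line; filled points passed an adjusted p of 0.05, and the CLS-439 value of PDCD1LG2 is missing because it had no read there. The filled points are CD276, PVR and CD47 in T24, CD274 and PVR in 5637, CD274 in TCC-SUP and TNFRSF14 in CLS-439.

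CD274 (chromosome 9, 5450503 to 5470566, plus strand, GRCh38) encodes PD-L1, the ligand that binds PD-1. In 5637 it was at 396, 321 and 373 CPM in the MMC libraries, against 119.5, 150.1 and 147 CPM in the NT libraries. Every MMC library lay above every NT library, and the level rose 2.62-fold (log2 fold change 1.39 ± 0.23 SE, adjusted p = 5.52e-05). CD274 thereby held 41.4 ± 1.34% of the summed RPKM of the 9 ligands in MMC-treated 5637, against 22.8 ± 2.59% in NT 5637. In TCC-SUP it was at 47.1, 50.1 and 93.9 CPM after MMC and at 32.4, 50.3 and 35.2 CPM without, with 1 high MMC library and an overlap between the groups. The call there (log2 fold change 0.70 ± 0.23, adjusted p = 0.0301) was lost without MMC replicate 4 (0.31, adjusted p = 0.363), without NT replicate 1 (adjusted p = 0.152) or NT replicate 4 (adjusted p = 0.119), with CLS-439 left out of the fit (adjusted p = 0.055) and with TCC-SUP fitted alone (adjusted p = 0.0758). Leaving out a replicate in 1 group or in all gave TCC-SUP log2 fold changes of 0.23 to 1.06 and adjusted p of 0.00889 to 0.679.

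In T24, CD274 had 47.9, 33.6 and 48.0 CPM after MMC, against 29.8, 30.3 and 43.3 CPM in NT cells. The groups overlapped, and the difference of 0.32 ± 0.23 on the log2 scale did not pass (adjusted p = 0.32). CLS-439 had few reads of the gene: 5, 16 and 11 reads per MMC library, against 4, 5 and 6 reads per NT library, gave 0.528 ± 0.236 CPM in MMC and 0.248 ± 0.0694 CPM in NT cells (adjusted p = 0.659). Among NT lines, 5637 at 139 ± 16.8 CPM was above TCC-SUP at 39.3 ± 9.64 CPM (adjusted p = 2.46e-07). TCC-SUP and T24 at 34.5 ± 7.68 CPM were not separated (adjusted p = 0.519), and the counted level of CLS-439 was far below T24 (adjusted p = 1.22e-14). A difference in CD274 response among the lines did not pass, at adjusted p = 0.0892 for 4 lines and 0.0889 for T24, 5637 and TCC-SUP; with no filter on low counts these were 0.00237 and 0.00205. The T24 response minus the 5637 response was -1.06 ± 0.32 on the log2 scale (adjusted p = 0.0626; 3.47% of all genes passed in that contrast).

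PDCD1LG2 (chromosome 9, 5510570 to 5571254, plus strand) encodes PD-L2, the second ligand of PD-1, and lies next to CD274. In TCC-SUP it was at 14.4, 11.1 and 16.2 CPM in MMC libraries, against 16.6, 21.3 and 19.6 CPM in NT libraries. All MMC libraries were below all NT libraries, but the log2 fold change of -0.46 ± 0.23 did not pass (adjusted p = 0.166; adjusted p = 0.0438 without replicate 1). It averaged 7.14 ± 1.57 CPM in MMC and 9.02 ± 1.56 CPM in NT T24, and 9.57 ± 2.90 CPM in MMC and 9.13 ± 0.675 CPM in NT 5637, with overlapping libraries and adjusted p of 0.323 and 0.908. CLS-439 had 0 reads in all 6 libraries. A limit of 3 reads over a group places MMC-treated CLS-439 under 0.0509 CPM and NT CLS-439 under 0.0487 CPM, for counting error only. Against these limits the means of the other MMC lines were at least 140.3-fold and those of the other NT lines at least 185-fold higher in counted reads. Whether CLS-439 reads of the gene were counted as fully as those of the other lines was not tested. TCC-SUP held the highest NT level at 19.2 ± 2.42 CPM, above 5637 (adjusted p = 0.000465), while 5637 and T24 were not separated (adjusted p = 1).

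**Figure D3:**
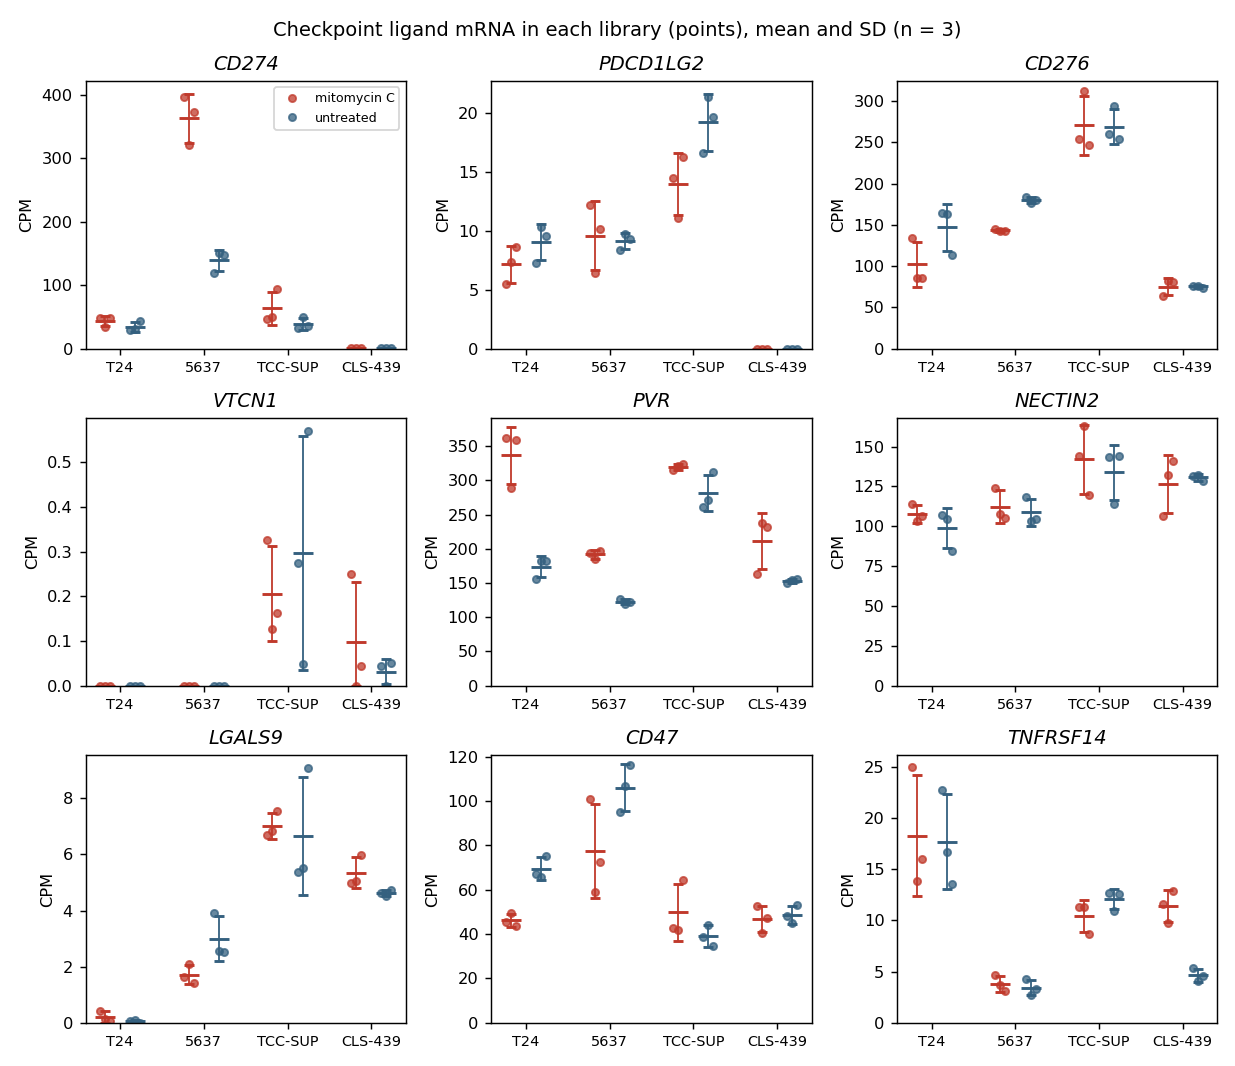
CPM of the 9 checkpoint ligand genes in each library (points) with the mean and SD of 3 libraries, MMC (red) left of NT (blue) in each line; each panel has its own axis from 0. In 5637 the MMC libraries of CD274 lie between 321 and 396 CPM, above all NT libraries, and all MMC libraries of PVR lie above the NT libraries in each of the 4 lines.

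CD276 (chromosome 15, 73683966 to 73714518, plus strand) encodes B7-H3, a B7 family member widely present on carcinomas whose receptor is unsettled. In T24 it was at 134, 86.1 and 86.1 CPM in MMC libraries, against 164, 163 and 114 CPM in NT libraries. MMC replicate 1 lay above NT replicate 4, so the groups overlapped, and the fall of 0.53 ± 0.16 on the log2 scale passed at adjusted p = 0.0132. The call was lost without MMC replicate 3 (adjusted p = 0.0538), MMC replicate 4 (0.0904) or NT replicate 3 (0.0509), and with T24 fitted alone (0.1). With a replicate left out, in 1 group or in all, its adjusted p reached 0.241. In 5637 the MMC libraries at 145, 142 and 143 CPM all lay under the NT libraries at 184, 177 and 180.1 CPM. That difference, -0.33 ± 0.16, did not pass in the shared fit (adjusted p = 0.119) and passed with 5637 fitted alone (-0.31, adjusted p = 0.0362).

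TCC-SUP and CLS-439 showed little difference in CD276. The level was 271 ± 36.0 CPM in MMC and 269 ± 21.7 CPM in NT TCC-SUP, and 75.2 ± 9.94 CPM in MMC and 75.4 ± 1.61 CPM in NT CLS-439. The approximate 95% intervals of these log2 fold changes ran from -0.30 to 0.31 and from -0.31 to 0.30. Among NT lines TCC-SUP was above 5637 (adjusted p = 0.00266), 5637 and T24 were not separated (adjusted p = 0.127), and T24 was above CLS-439 (adjusted p = 6.83e-06).

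VTCN1 (chromosome 1, 117143587 to 117210960, minus strand) encodes B7-H4, an inhibitory B7 protein of epithelia. It had 0 reads in all 12 libraries of T24 and 5637, which allows up to 0.0496 CPM in MMC and 0.0404 CPM in NT T24, and up to 0.0464 CPM in MMC and 0.0483 CPM in NT 5637. TCC-SUP had 7, 3 and 4 reads per MMC library, against 6, 1 and 12 reads per NT library, and CLS-439 had 4, 0 and 1 reads per MMC library, against 1, 0 and 1 reads per NT library. The gene was below the filter and has no test between MMC and NT. The mean of MMC TCC-SUP was 4.15-fold the limit of 3 reads over a group in T24 and 4.43-fold that in 5637. For the mean of NT TCC-SUP these were 7.36-fold and 6.16-fold. They are no lower bounds, because the spread of the TCC-SUP libraries is left out. NT TCC-SUP replicate 3, with 1 read, was at 0.0485 CPM.

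PVR (chromosome 19, 44643798 to 44663583, plus strand) encodes CD155, the main ligand of TIGIT and CD96 and also a ligand of the activating receptor CD226. In T24 it was at 362, 289 and 359.7 CPM in MMC libraries, against 156, 183 and 183 CPM in NT libraries. The groups did not overlap, and PVR rose 1.94-fold (log2 fold change 0.95 ± 0.13, adjusted p = 4.99e-06). In 5637 the MMC libraries at 195, 185 and 196 CPM also lay above all NT libraries at 127, 119.7 and 122 CPM. The rise there was 1.56-fold (0.64 ± 0.13, adjusted p = 0.00041), and both calls held without any 1 library.

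The same order of libraries appeared for PVR in the other lines without a call. In CLS-439 it was at 164, 238 and 232 CPM after MMC, against 150.3, 154 and 156 CPM in NT cells. The log2 fold change was 0.46 ± 0.13 (adjusted p = 0.107), and it passed without MMC replicate 1 (0.62, adjusted p = 0.00891). In TCC-SUP it was at 316, 321 and 324 CPM after MMC, against 262, 271 and 312 CPM in NT cells (0.19 ± 0.12, adjusted p = 0.325). MMC libraries thus did not overlap NT libraries in any of the 4 lines, while the share of all tested genes with no overlap was 34.6% (T24), 40.5% (5637), 37.7% (TCC-SUP) and 21.9% (CLS-439). Reads of CEACAM19, which overlaps PVR on the same strand, came to 2.79% of those of PVR.

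PVR was one of the members whose response differed among lines. The test passed at adjusted p = 0.0207 for 4 lines, where 3 of 8 members and 16% of all tested genes passed, and at 0.0214 for T24, 5637 and TCC-SUP, where 2 of 8 members and 6.86% of all genes passed. The T24 response exceeded the TCC-SUP response by 0.77 ± 0.18 on the log2 scale (adjusted p = 0.014; 2 of 8 members and 3.79% of all genes passed). Before treatment TCC-SUP at 282 ± 26.9 CPM was above T24 at 174 ± 15.3 CPM (adjusted p = 4.54e-05). After MMC these lines were not separated for PVR, T24 at 337 ± 41.4 CPM and TCC-SUP at 320.2 ± 4.13 CPM (adjusted p = 0.674), while 6 of 8 members and 49% of all genes differed between them.

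NECTIN2 (chromosome 19, 44846175 to 44889228, plus strand) encodes CD112, which engages TIGIT, CD226 and PVRIG. It did not pass the test in any line. It averaged 108 ± 5.50 CPM in MMC and 98.8 ± 12.6 CPM in NT T24, 112 ± 10.2 in MMC and 109 ± 8.33 in NT 5637, 142 ± 21.7 in MMC and 134 ± 17.4 in NT TCC-SUP, and 127 ± 18.1 in MMC and 131 ± 2.14 in NT CLS-439. The libraries overlapped in every line, the log2 fold changes lay between -0.05 and 0.13, and the approximate 95% intervals reached no further than -0.31 and 0.39. The NT levels differed among the 4 lines (adjusted p = 0.0102), though no neighbours in their order (TCC-SUP, CLS-439, 5637, T24) were separated.

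LGALS9 (chromosome 17, 27629798 to 27649560, plus strand) encodes galectin-9, a secreted lectin that binds TIM-3. In 5637 it was at 1.64, 2.09 and 1.42 CPM in MMC libraries, against 3.91, 2.56 and 2.53 CPM in NT libraries. All MMC libraries lay below all NT libraries, and the log2 fold change of -0.80 ± 0.31 fell just short (adjusted p = 0.0527). It passed with the replicate number as a block (adjusted p = 0.0215), with no filter (0.0445) and in DESeq2 (0.0171). TCC-SUP had 7.02 ± 0.464 CPM in MMC and 6.66 ± 2.09 CPM in NT cells, and CLS-439 had 5.35 ± 0.545 CPM in MMC and 4.62 ± 0.113 CPM in NT cells, neither called. T24 had 8, 3 and 1 reads per MMC library, against 2, 2 and 0 reads per NT library. The near copies LGALS9B and LGALS9C drew 14 to 42 reads per library in CLS-439 and at most 4 elsewhere, so the LGALS9 counts of CLS-439 are uncertain.

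CD47 (chromosome 3, 108043094 to 108091862, minus strand) encodes the surface protein that signals through SIRPα on macrophages against engulfment. In T24 it was at 45.6, 49.3 and 43.6 CPM in MMC libraries, against 67.2, 65.7 and 75.4 CPM in NT libraries. The groups did not overlap, and CD47 fell by 0.59 ± 0.18 on the log2 scale (adjusted p = 0.0141). The call was lost without MMC replicate 4 (0.0579) or NT replicate 4 (0.0634). With a replicate left out, in 1 group or in all, its adjusted p reached 0.203. In 5637 it was at 101, 59.0 and 72.4 CPM after MMC, against 95.1, 107 and 116 CPM in NT cells. MMC replicate 1 overlapped the NT libraries, and the difference of -0.45 ± 0.18 (adjusted p = 0.0534) passed without that library (-0.73, adjusted p = 0.0026).

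In TCC-SUP, CD47 had the opposite sign and no call. It was at 42.8, 41.9 and 64.6 CPM after MMC, against 38.8, 44.1 and 34.4 CPM in NT cells (0.35 ± 0.18, adjusted p = 0.174). CLS-439 averaged 46.8 ± 5.91 CPM in MMC and 48.8 ± 4.07 CPM in NT cells (-0.06 ± 0.18). The responses differed among the 4 lines (adjusted p = 0.0331) and among T24, 5637 and TCC-SUP (adjusted p = 0.0344), and both calls were lost with the replicate number as a block (adjusted p = 0.0544 and 0.0576). Without the block, the T24 response minus the TCC-SUP response was -0.94 ± 0.25 (adjusted p = 0.0341). The test among the 3 lines missed the threshold with CLS-439 left out of the fit (adjusted p = 0.0798). Untreated, 5637 was the highest at 106 ± 10.5 CPM, above T24 at 69.4 ± 5.25 CPM (adjusted p = 0.00566), which was above CLS-439 (adjusted p = 0.0122), while CLS-439 and TCC-SUP were not separated (adjusted p = 0.104).

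TNFRSF14 (chromosome 1, 2555639 to 2565382, plus strand) encodes HVEM, a receptor of the TNF family that acts as a ligand for BTLA on lymphocytes. In CLS-439 it was at 11.6, 9.74 and 12.8 CPM in MMC libraries, against 5.31, 4.09 and 4.53 CPM in NT libraries. All MMC libraries were above all NT libraries, and TNFRSF14 rose 2.45-fold (log2 fold change 1.29 ± 0.24, adjusted p = 0.00718). The call was lost without NT replicate 3 (0.0747), NT replicate 4 (0.0508) or MMC replicate 4 (0.0645). Over all settings with a replicate left out, in 1 group or in all, the adjusted p of this response ran from 0.00123 to 0.694. The T24 libraries were at 25.0, 13.9 and 15.96 CPM after MMC, against 22.7, 16.7 and 13.6 CPM in NT cells, and the groups overlapped. TNFRSF14 averaged 3.81 ± 0.76 CPM in MMC and 3.44 ± 0.767 CPM in NT 5637, and 10.4 ± 1.53 CPM in MMC and 12.1 ± 0.972 CPM in NT TCC-SUP, neither called.

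The TNFRSF14 response of CLS-439 differed from that of each other line. The T24 response minus the CLS-439 response was -1.24 ± 0.33 on the log2 scale (adjusted p = 0.0154; 1 of 8 members and 10.1% of all genes passed). The 5637 response minus the CLS-439 response was -1.14 ± 0.34 (adjusted p = 0.0373; 1 of 8 members and 9.02% of all genes), and the TCC-SUP response minus it was -1.50 ± 0.33 (adjusted p = 0.018; 1 of 8 members and 2.65% of all genes). Among 4 lines the test passed at adjusted p = 0.0104, and among T24, 5637 and TCC-SUP it did not (0.785). Reads of the antisense gene TNFRSF14-AS1 came to 3.03% of those of TNFRSF14.

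All 8 tested members differed among NT lines in the tests over 4 lines and over T24, 5637 and TCC-SUP, beside 93.3% and 70.1% of all tested genes. By pairs of NT lines, 7 of 8 members separated T24 from TCC-SUP (51.3% of all genes), 7 separated T24 from CLS-439 (72.3%), 7 separated 5637 from TCC-SUP (56.6%), 5 separated T24 from 5637 (46.6%), 5 separated 5637 from CLS-439 (73.7%) and 5 separated TCC-SUP from CLS-439 (77%). Likeness of other coding genes was measured as Pearson's r of log2 CPM over the 18 libraries of T24, 5637 and TCC-SUP, which fall into clusters by line, so it reflects mostly the levels of the lines. The genes most like each member were IL24 (r = 0.976) and TMEM206 (0.970) for CD274, MFSD6 (0.941) and LHFPL2 (0.930) for PDCD1LG2, TSKU (0.956) and BRI3 (0.949) for CD276, and METTL22 (0.954) and TRIM26 (0.953) for PVR. For NECTIN2 they were KIAA1522 (0.929) and KLHDC3 (0.905), for LGALS9 PLAC8 (0.983) and HR (0.981), for CD47 GUF1 (0.935) and CYB5R4 (0.929), and for TNFRSF14 MAPK3 (0.989) and AP2M1 (0.987).

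Listed regulators of PD-L1 were called both higher and lower after MMC in T24, 5637 and TCC-SUP, and their part in the CD274 levels was not tested. Of 21 listed genes, 9 were higher and 2 lower in T24 after MMC, 5 higher and 2 lower in 5637, 4 higher and 4 lower in TCC-SUP, and 0 either way in CLS-439, where 2 were higher and 2 lower at an unadjusted p under 0.05 and DESeq2 called 0. Over all tested genes the shares called higher and lower were 15.2% and 13.4% in T24, 15.9% and 13.6% in 5637, and 9.57% and 11.1% in TCC-SUP. The list's median log2 fold change was 0.25 (T24), -0.06 (5637), -0.03 (TCC-SUP) and 0.09 (CLS-439), against 0 over all tested genes. RELB, an NF-kB subunit, rose to 59.8 ± 11.4 CPM in MMC T24, against 2.83 ± 0.425 CPM in NT T24 (log2 fold change 4.39 ± 0.22, adjusted p = 2.19e-12), and also rose in 5637 (0.87) and TCC-SUP (1.36). IRF1, the interferon factor that acts at the CD274 promoter, was at 101 ± 18.5 CPM in MMC and 28.2 ± 7.57 CPM in NT T24 (1.83 ± 0.16, adjusted p = 1.89e-08), and NFKB1 rose by 1.32 ± 0.14 there. IRF1 also rose in 5637, to 95.2 ± 5.60 CPM against 63.5 ± 5.14 CPM in NT cells, and MYC fell by 1.42 ± 0.24 in 5637. In TCC-SUP, IRF1 was at 112 ± 8.67 CPM in MMC and 80.9 ± 8.37 CPM in NT cells. GSK3B (log2 fold change -0.72 ± 0.18), CMTM4 (-0.66 ± 0.18) and HIF1A (-0.66 ± 0.18) were called lower there. JAK1, also called lower in TCC-SUP, was at 123 ± 14.1 CPM in MMC and 186 ± 22.9 CPM in NT cells. CMTM6, which protects PD-L1 protein from degradation, was at 77.4 ± 9.94 CPM in MMC and 123 ± 8.04 CPM in NT T24 (adjusted p = 0.00138).

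**Figure D4:**
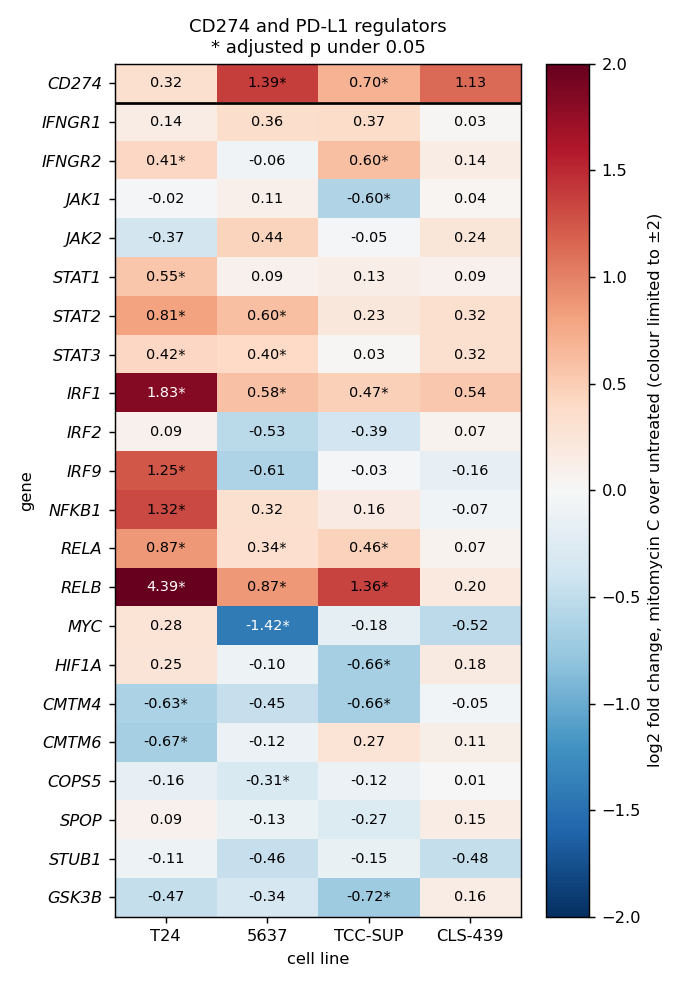
Log2 fold change of MMC over NT for CD274 (top row) and 21 regulators of PD-L1 in each line, with the value printed in each cell, colour limited to 2 either way, and an asterisk at adjusted p under 0.05. IRF1, RELA and RELB carry an asterisk in T24, 5637 and TCC-SUP, and CLS-439 carries none. Asterisks on negative values are at CMTM4 and CMTM6 in T24, MYC and COPS5 in 5637, and JAK1, HIF1A, CMTM4 and GSK3B in TCC-SUP.

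Called genes around CD274 moved in both directions. Within 500 kb of its start, RLN2, a relaxin gene, rose in 5637 to 6.38 CPM against 2.65 CPM in NT cells (log2 fold change 1.27 ± 0.27, adjusted p = 0.00105), and its paralog RLN1 rose there too, at low level (0.955 CPM in MMC and 0.251 CPM in NT cells, 1.94 ± 0.65, adjusted p = 0.0281), though reads may be split between these similar genes. JAK2, PDCD1LG2 and RIC1 were not called in any line. PLGRKT, whose start lies at -12.6 kb from that of CD274, fell in T24 (by 0.85 ± 0.24) and TCC-SUP (by 1.04 ± 0.24), and ERMP1 fell in T24, 5637 and TCC-SUP (by 0.92, 0.57 and 0.56).

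**Figure D5:**
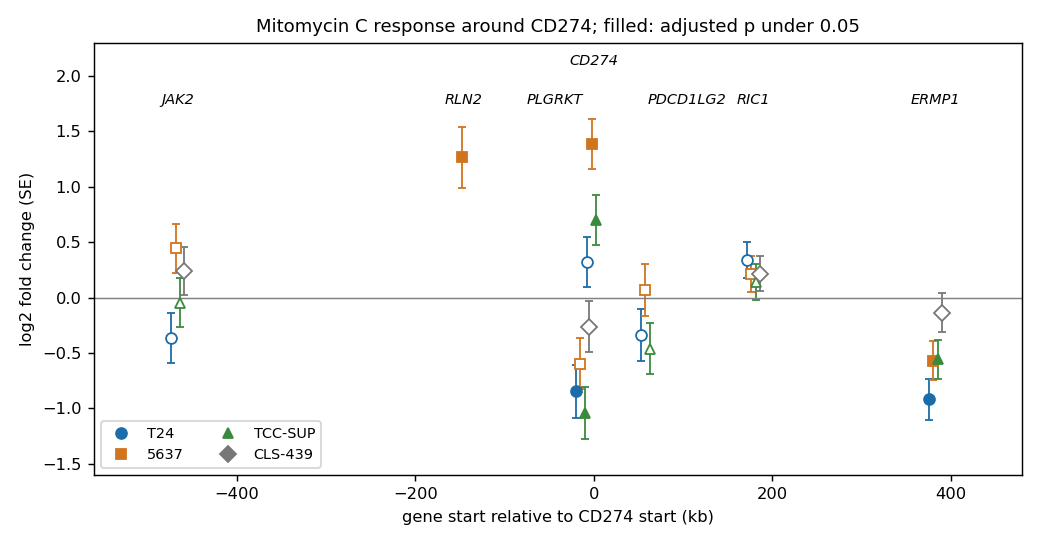
Log2 fold change of MMC over NT with its SE for genes within 500 kb of CD274, by the distance of their start from that of CD274 in kb; filled points passed an adjusted p of 0.05, groups under 1 CPM are left out, and lines are set side by side. CD274 and RLN2 in 5637 lie above 1, while filled points of PLGRKT and ERMP1 lie below 0.

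Other ligands of the B7 and butyrophilin families held both higher and lower genes after MMC. Of 13 listed genes 9 were tested: 1 was higher and 1 lower in T24, 4 higher and 3 lower in 5637, 2 higher and 2 lower in TCC-SUP, and 0 in CLS-439, where the unadjusted p and DESeq2 also gave 0. The called genes stand beside 28.6% of all genes in T24, 29.4% in 5637 and 20.7% in TCC-SUP. BTN2A1, a butyrophilin that takes part in sensing by γδ T cells, rose in T24 to 102 ± 18.6 CPM against 55.5 ± 4.25 CPM in NT cells (0.88 ± 0.14). It also rose in 5637, to 57.1 ± 5.71 CPM against 36.4 ± 2.61 CPM in NT cells, and in TCC-SUP (0.62 ± 0.14). BTN3A3 had the largest called change of the list in 5637, a fall (log2 fold change -1.41 ± 0.30). BTN3A2 fell in T24 (by 0.96), 5637 (by 1.36) and TCC-SUP (by 0.74), and BTN3A1 fell in 5637 (by 1.18) and TCC-SUP (by 0.61). NCR3LG1 (B7-H6), a ligand of the natural killer receptor NKp30, rose in 5637 (1.12 ± 0.23) and TCC-SUP (0.81 ± 0.20). The list's median log2 fold change was 0.26 (T24), 0.62 (5637), 0.12 (TCC-SUP) and 0.13 (CLS-439).

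Among 15 other nectins, galectins and surface ligands, 14 were tested. In T24 4 were higher and 2 lower, in 5637 3 higher and 2 lower, and 1 was higher in TCC-SUP and in CLS-439, where 28.6% (T24), 29.4% (5637), 20.7% (TCC-SUP) and 0.62% (CLS-439) of all genes were called. NECTIN4, the target of an antibody-drug conjugate used in bladder cancer, rose in CLS-439 to 3.66 ± 0.681 CPM against 0.34 ± 0.075 CPM in NT cells (log2 fold change 3.40 ± 0.46), in T24 to 0.594 ± 0.329 CPM against 0.0947 ± 0.0587 CPM, and in TCC-SUP to 1.84 ± 0.679 CPM against 0.544 ± 0.337 CPM. CD40 rose in T24 (1.18 ± 0.20), and TNFSF9, a costimulatory ligand of T cells, rose in 5637 to 5.65 ± 2.77 CPM against 1.06 ± 0.128 CPM in NT cells. NECTIN1 fell in 5637 by 1.08 ± 0.14. The list's median was -0.08 (T24), -0.07 (5637), -0.40 (TCC-SUP) and 0.20 (CLS-439).

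Some listed partners of CD47 were called lower after MMC in T24, 5637 and TCC-SUP, and any link to the CD47 levels was not tested. Of 7 listed genes 6 were tested, with 0 higher and 2 lower in T24, 2 higher and 3 lower in 5637, 0 higher and 3 lower in TCC-SUP, and 0 either way in CLS-439 (0 also at an unadjusted p under 0.05 and in DESeq2). The share of all genes called was 28.6% (T24), 29.4% (5637) and 20.7% (TCC-SUP), and 2 of 6 in T24 is near it. CALR encodes calreticulin, a protein of the endoplasmic reticulum that is an "eat me" signal when at the cell surface, which was not measured. Its RNA was at 756 ± 165 CPM in MMC and 1227 ± 37.4 CPM in NT T24, and 418 ± 133 in MMC and 923 ± 86.1 in NT 5637. In TCC-SUP it was at 1113 ± 252 CPM in MMC and 1990.3 ± 227 CPM in NT cells, and all 3 differences were called. LRP1, the receptor for calreticulin, fell by 0.97, 0.89 and 1.03 in the same lines, and THBS1, the secreted CD47 ligand thrombospondin, fell by 1.48 in 5637 and 1.03 in TCC-SUP. SIRPA rose in 5637 by 0.93 ± 0.14. The list's median was -0.07 (T24), -0.69 (5637), -0.37 (TCC-SUP) and -0.10 (CLS-439).

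A list of immune cell genes, receptors together with the TNF family ligands TNFSF14 and LTA, was mostly under 1 CPM where tested. CTLA4 and CD28 on that list are receptors of CD80 and CD86, which are not members. Of 12 listed genes 6 were tested, and HAVCR2 (TIM-3, 0.429 against 0.0797 CPM) was higher and CD226 (0.185 against 0.825 CPM) lower in MMC than in NT 5637, beside 29.4% of all genes called. No listed gene was called in T24, TCC-SUP or CLS-439, where DESeq2 also called 0. An unadjusted p under 0.05 gave 1 in T24, 1 in TCC-SUP and 0 in CLS-439. PDCD1 (PD-1) was at 5.42 CPM in MMC and 4.76 CPM in NT CLS-439 and at most 0.0311 CPM in the other lines. The list's median was 0 (T24), 1.08 (5637), 0.95 (TCC-SUP) and -0.40 (CLS-439), on genes mostly under 1 CPM.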

How the data were processed

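Raw gene-level counts of the 24 libraries were deposited by the authors in a single table, made with a stranded mRNA kit per the labels' protocols and with STAR 2.5.3a, featureCounts 1.6.2 and GRCh38 per the submitters' processing notes. Annotation release, strand setting and multimapping rule: not given in the sources used here. The treated tag is spelled MCC in the labels and was read as MMC. Symbols, coordinates and exon lengths came from GENCODE 29, which held 58216 of 58381 gene IDs (the other 165 held 0.00717% of reads).

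Counts were tested with edgeR 4.0.16 (R 4.3.3): filterByExpr by group (20820 genes, 99.94% of reads), TMM, and a robust quasi-likelihood fit of 8 group means over 24 libraries with no replicate block (16 residual degrees of freedom, common dispersion 0.0317). Adjusted p values are Benjamini-Hochberg over all 20820 genes, with a threshold of 0.05. CPM uses the TMM-scaled library size, and RPKM divides it by exon length. Alternatives were RLE size factors, no filter, DESeq2 1.42.0, a replicate block, each line alone, CLS-439 left out, and each replicate left out. The script was tested on simulated data. All 9 members are named. From each list, up to 4 called genes with the largest change in a line may be named with their change, any listed gene with its level, the 2 most alike coding genes at a mean of at least 10 CPM over 18 libraries (log2 of CPM + 0.5), and all tested coding neighbours within 500 kb of CD274. The members and lists were chosen with earlier results of these data known.

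The design text calls the 3 libraries of a group biological replicates. No 2 of them agreed within sampling noise (lowest chi-square per gene 3.92). Deviations of same-numbered MMC and NT libraries correlated at 0.28, 0.13 and 0.39 in 5637 and at 0.42, 0.28 and 0.14 in CLS-439. By a set rule that all correlations of a line exceed 0.1, the numbers counted as pairs in both lines, unlike T24 and TCC-SUP. The rule does not establish pairing, and the main fit used no replicate block in any line. Floors (3 reads over a group) cover counting error only. The 95% intervals of log2 fold changes are approximate: they use a normal multiple of the SE of the fit, which includes the spread between libraries. They can be narrower than the test implies. For CD47 in TCC-SUP the interval was 0.00187 to 0.695, while the unadjusted p of the quasi-likelihood test was 0.0602.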

Additional observations from a re-analysis of the deposited data

Results flagged for a closer look

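PVR was flagged because its MMC response differed between lines by a direct test, with an adjusted p of 0.0207 over 4 lines and 0.0214 over T24, 5637 and TCC-SUP. CD47 was flagged for the same reason, with an adjusted p of 0.0331 over 4 lines and 0.0344 over T24, 5637 and TCC-SUP; with the replicate number as a block it missed the threshold (0.0544 and 0.0576). TNFRSF14 differed over 4 lines only, with an adjusted p of 0.0104, and the line that set it apart was CLS-439, whose libraries also stand apart in mitochondrial and pseudogene reads; the part of that in the result was not tested. With replicate 3 or replicate 4 left out of every group, PVR, CD47 and TNFRSF14 all missed the threshold in these tests, PVR with up to 0.542 over 4 lines and 0.699 over 3 lines, CD47 with up to 0.761 and 0.914, and TNFRSF14 with up to 0.411 over 4 lines. Dixon's test for an outlying library was not run on groups of 3.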

How the results depend on the processing

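VTCN1 everywhere, CD274 and PDCD1LG2 in CLS-439 and LGALS9 in T24 had few reads, all at 0 to 16 per library, for causes not tested. Of the members called, MMC against NT, the count in 5637 was 2 and became 4 with no filter. In TCC-SUP it was 1 and became 0 without CLS-439 and 0 with TCC-SUP fitted alone. In CLS-439 it was 1 and became 2 in DESeq2. Members whose response differed among 4 lines numbered 3 and became 5 with no filter, and those among T24, 5637 and TCC-SUP numbered 2 and became 1 without CLS-439. The cause of these shifts was not tested. NECTIN2 levels among NT T24, 5637 and TCC-SUP missed the threshold with no filter (adjusted p = 0.0532). Leaving out 1 replicate at a time, in 1 group or in all, gave 1 to 3 called members in T24, 2 to 3 in 5637, 0 to 2 in TCC-SUP and 0 to 2 in CLS-439, 0 to 4 for differing responses among 4 lines and 0 to 2 among 3 lines, and 7 to 8 for differing NT levels. CD276 in TCC-SUP changed sign near 0 under RLE size factors (-0.00049), no filter (-0.00758), DESeq2 (-0.000486) and without CLS-439 (-0.0111). Leaving out replicates turned the sign of some uncalled log2 fold changes, whose ranges were -0.00476 to 0.19 for NECTIN2 and -0.23 to 0.24 for TNFRSF14 in T24. In 5637 they were -0.24 to 0.33 for PDCD1LG2, -0.0654 to 0.0987 for NECTIN2 and -0.0501 to 0.32 for TNFRSF14. In TCC-SUP they were -0.11 to 0.0708 for CD276, -0.13 to 0.25 for NECTIN2 and -0.0712 to 0.36 for LGALS9. In CLS-439 they were -0.0719 to 0.11 for CD276, -0.15 to 0.0638 for NECTIN2 and -0.16 to 0.0276 for CD47. Of all values under settings other than left-out replicates, 281 kept their direction and side of the threshold, 13 passed it newly, 7 lost it and 4 turned sign; with replicates left out these were 307, 7, 29 and 32.

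With the replicate number as a block, the count of called members was 3 in T24, 3 in 5637 (LGALS9 added), 1 in TCC-SUP and 1 in CLS-439, 3 for differing responses among 4 lines and 2 among 3 lines. In those tests LGALS9 passed under the block (adjusted p = 0.0356 and 0.0439) and CD47 did not (adjusted p = 0.0544 and 0.0576), and the block changed no other call. By the rule of correlations above 0.1, the numbers did not count as pairs in T24 (correlations 0.39, -0.16 and 0.43) or TCC-SUP (0.13, -0.02 and -0.17).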
